A study of Mus musculus with 12 samples.

Results

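Nr4a1, Nr4a2, Nr4a3, Egr1, Egr2, Egr3, Fos, Fosb, Junb and Rgs2 are 10 of the 33219 features in the count table of this RNA-seq experiment. They were found by matching Ensembl identifiers to symbols in GENCODE M21, and all 10 passed the filter on low counts. Rgs2 and Egr3 passed it through the WT samples, with 5 to 13 counts in each A159V sample, so their lower level in A159V is given as a description. The set was chosen by values of these samples, since Nr4a3 and Egr3 were known to be higher with anti-PD1 than with IgG in WT tumors. The change with anti-PD1 in WT, and its difference from the change in A159V, are therefore given below as descriptions for all 10 genes, and so is every difference that uses a WT sample for Nr4a3 and Egr3.

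RNA was taken from tumor cells of MC38, a mouse colon adenocarcinoma line. WT denotes the unedited line, and A159V denotes MC38 cells in which CRISPR-Cas9 placed a homozygous A159V mutation at the endogenous Rac1 locus. RAC1 is a small GTPase that controls actin and kinase signaling. The A159V data came from clone 9 unless the study specifies another, so genotype and clone cannot be told apart. Cells were grown under the skin of C57BL/6 mice, female or male and 6 to 8 weeks old, and the mice were given either IgG isotype control or anti-PD1 from day 3 on, with 3 days between injections. Tumors were taken on day 13 and dissociated by a warm collagenase digestion, and tumor cells were purified with a magnetic kit. Each genotype was studied with IgG and with anti-PD1, which gave 4 groups with samples from 3 mice each.

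Immediate early genes are transcribed within minutes of a stimulus, from transcription factors that are already in the cell, such as CREB at cAMP response elements and SRF with its ternary complex partners at CArG boxes. Many of their products are transcription factors themselves. NR4A1, NR4A2 and NR4A3 are orphan nuclear receptors, EGR1, EGR2 and EGR3 are zinc finger factors, FOS, FOSB and JUNB form AP-1 dimers, and RGS2 speeds up GTP hydrolysis on G protein alpha subunits. NR4A and EGR factors are also induced by antigen receptor signaling in T cells, and warm tissue dissociation is known to induce many immediate early genes.

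Promoters are shown for Rgs2, Egr2, Nr4a2 and Nr4a3, which had the widest genotype differences among the 8 members whose promoters were searched. That of Nr4a1 is shown because it completes the Nr4a family. Each is the sense strand of the 250 bases before a RefSeq transcript start in GRCm38.p6, 5′ to 3′. Capitals mark the short core of the cAMP response element (TGACG, or CGTCA where it lies on the other strand) and, in Egr2, the CArG box.
Nr4a1 (chr15:101266596-101266845, plus strand): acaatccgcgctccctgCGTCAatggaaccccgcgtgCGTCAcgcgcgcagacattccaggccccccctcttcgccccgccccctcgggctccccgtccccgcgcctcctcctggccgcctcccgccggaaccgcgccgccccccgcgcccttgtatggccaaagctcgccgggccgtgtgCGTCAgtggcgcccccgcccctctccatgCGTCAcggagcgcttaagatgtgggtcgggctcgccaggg
Nr4a2 (chr2:57124004-57124253, minus strand): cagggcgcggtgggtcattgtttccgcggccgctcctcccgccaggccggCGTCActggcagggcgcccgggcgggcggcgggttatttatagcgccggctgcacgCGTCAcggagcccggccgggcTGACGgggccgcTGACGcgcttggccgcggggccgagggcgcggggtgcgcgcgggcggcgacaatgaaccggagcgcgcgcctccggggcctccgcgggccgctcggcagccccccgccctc
Nr4a3 (chr4:48045055-48045304, plus strand): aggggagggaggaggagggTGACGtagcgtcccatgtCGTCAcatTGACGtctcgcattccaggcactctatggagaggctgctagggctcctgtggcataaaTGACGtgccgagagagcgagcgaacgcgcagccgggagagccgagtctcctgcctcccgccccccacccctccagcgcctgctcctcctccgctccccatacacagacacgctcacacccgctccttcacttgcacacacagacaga
Egr2 (chr10:67537619-67537868, plus strand, the third of 5 listed starts): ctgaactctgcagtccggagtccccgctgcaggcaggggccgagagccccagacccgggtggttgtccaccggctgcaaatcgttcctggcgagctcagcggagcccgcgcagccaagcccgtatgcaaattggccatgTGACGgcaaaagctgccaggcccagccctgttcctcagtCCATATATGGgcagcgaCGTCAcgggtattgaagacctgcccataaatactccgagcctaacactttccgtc
Rgs2 (chr1:144004150-144004399, minus strand): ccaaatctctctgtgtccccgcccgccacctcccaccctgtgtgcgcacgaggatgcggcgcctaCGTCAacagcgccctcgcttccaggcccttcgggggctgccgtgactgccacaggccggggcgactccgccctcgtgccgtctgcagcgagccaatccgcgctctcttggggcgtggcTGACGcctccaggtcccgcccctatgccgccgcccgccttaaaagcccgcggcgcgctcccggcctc
Each of the 3 Nr4a promoters held 4 core sites, with those of Nr4a3 at −231, −213, −205 and −147 from the start. Promoters of 8 members were searched, and those of Egr1 and Egr3 were not. Each of the 8 held at least 1 core site at 1 or more of its starts, with 2 in Fos, 2 in Rgs2, 1 in Fosb and 1 in Junb. Counted by window, 10 of the 12 member windows held at least 1, and Egr2 alone had several windows. Over 32851 promoter windows of the same length, 17.8% held at least 1 core site on either strand, 3.9% held 2 or more and 0.137% held 4 or more. The full palindrome TGACGTCA, which contains the core site on both strands, was found in 0 of the 8 members and in 1.55% of all windows. An EGR site (GCGNGGGCG, either strand) was present in Nr4a1, Nr4a2, Fosb and Rgs2 and in 4.7% of all windows. The CArG box was present in Egr2 alone among the 8 and in 1.47% of all windows. Bases beyond the 250 were not searched for any motif, so a motif missing here may lie further upstream. The AP-1 site TGANTCA (6.75% of windows) and the NR4A monomer site AAAGGTCA (1.34%) were found in 0 of the 8. These matches describe letters in a window and not bound sites.

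Total counts per sample ranged from 14053582 to 21949942, so that 3 counts correspond to between 0.137 and 0.213 CPM, the count of a gene scaled to the size of its library, a floor for counting error only. Gene counts do not show the edited base and do not check the genotype. Defining epithelial markers were near 0 in every group, with 0 to 2 counts of Epcam and 2 to 13 counts of Krt8. CPM values below were scaled by edgeR's TMM factors. Calls come from the quasi-likelihood test of edgeR, fitted to the 12 samples together and adjusted by Benjamini-Hochberg over 14340 genes, and a gene was called where its adjusted p was under 0.05 and its log2 fold change was beyond 0.3 in either direction. Sample values are listed in the order of replicates 1, 2 and 4 for WT IgG, 1, 2 and 3 for WT anti-PD1, 1, 2 and 5 for A159V IgG, and 1, 2 and 3 for A159V anti-PD1.

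Among the nuclear receptors, Nr4a3 (ENSMUSG00000028341, chr4:48045153-48086447 in mm10) differed most between groups. It was at 10.4, 18.8 and 7.62 CPM with IgG and 49.4, 55.9 and 77.2 CPM with anti-PD1 in WT tumors, and at 3.7, 3.5 and 2.97 CPM with IgG and 2.94, 2.44 and 2.22 CPM with anti-PD1 in A159V tumors. The 4 groups did not overlap. Nr4a2 (ENSMUSG00000026826, chr2:57106830-57124003) was at 37.6, 42.4 and 28.3 CPM with IgG and 66.5, 61.4 and 104 CPM with anti-PD1 in WT tumors, and at 11.3, 9.36 and 9.03 CPM with IgG and 12.3, 10.8 and 7.84 CPM with anti-PD1 in A159V tumors. Nr4a1 (ENSMUSG00000023034, chr15:101254269-101274795) was at 39.8, 35.2 and 26.5 CPM with IgG and 43.2, 47.3 and 63.4 CPM with anti-PD1 in WT tumors, and at 19, 13 and 19.3 CPM with IgG and 18.6, 16.2 and 15.5 CPM with anti-PD1 in A159V tumors. For both genes every A159V sample lay below every WT sample, while the A159V groups overlapped each other.

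Among the zinc finger factors, Egr2 (ENSMUSG00000037868, chr10:67535475-67542188) was at 66.4, 41.6 and 38.2 CPM with IgG and 79.6, 79.4 and 137.6 CPM with anti-PD1 in WT tumors, and at 4.97, 10.6 and 9.03 CPM with IgG and 7.35, 3.72 and 7.12 CPM with anti-PD1 in A159V tumors. Its highest A159V sample was below its lowest WT sample. Egr3 (ENSMUSG00000033730, chr14:70077203-70082614) was scarce, at 0.928, 1.04 and 1 CPM with IgG and 4.4, 4.02 and 8.9 CPM with anti-PD1 in WT tumors, and at 0.317, 0.24 and 0.637 CPM with IgG and 0.272, 0.531 and 0.278 CPM with anti-PD1 in A159V tumors. These A159V values rest on 5 to 12 counts per sample. Egr1 (ENSMUSG00000038418, chr18:34859823-34864984), the most abundant of the 3 per kilobase, was at 1120, 970.3 and 799.5 CPM with IgG and 1305, 1166 and 1753 CPM with anti-PD1 in WT tumors, and at 943.8, 976.1 and 874.6 CPM with IgG and 1025, 485 and 938.4 CPM with anti-PD1 in A159V tumors. The Egr1 ranges of both IgG groups overlapped, and replicate 2 of A159V anti-PD1 lay below all other samples.

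Of the AP-1 subunits, Fos (ENSMUSG00000021250, chr12:85473890-85477273) was at 1059, 1116 and 1041 CPM with IgG and 1370, 1268 and 2088 CPM with anti-PD1 in WT tumors, and at 458.3, 721.8 and 622 CPM with IgG and 422.2, 307.9 and 586.2 CPM with anti-PD1 in A159V tumors. Fosb (ENSMUSG00000003545, chr7:19302696-19310051) was at 938.9, 1162 and 952.3 CPM with IgG and 1618, 1719 and 2474 CPM with anti-PD1 in WT tumors, and at 309.8, 471.7 and 507.5 CPM with IgG and 553.6, 233.4 and 471.7 CPM with anti-PD1 in A159V tumors. Both genes were lower in each A159V sample than in any WT sample. Junb (ENSMUSG00000052837, chr8:84974484-84978718) was at 1327, 909.1 and 779.8 CPM with IgG and 932.7, 784.3 and 1204 CPM with anti-PD1 in WT tumors, and at 796.5, 857.1 and 940.7 CPM with IgG and 704, 646.1 and 818.2 CPM with anti-PD1 in A159V tumors. All groups of Junb overlapped, and its counts are uncertain, since its exons overlap those of Prdx2 on the opposite strand (2112 to 5184 counts per sample) and the strand setting of the counting is not stated. Rgs2 (ENSMUSG00000026360, chr1:143999338-144004161) was at 6.06, 6.66 and 3.16 CPM with IgG and 7.71, 4.69 and 7.51 CPM with anti-PD1 in WT tumors, and at 0.476, 0.624 and 0.425 CPM with IgG and 0.381, 0.266 and 0.389 CPM with anti-PD1 in A159V tumors. The WT samples held 63 to 149 counts of Rgs2 and the A159V samples 5 to 13.

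**Figure D1:**
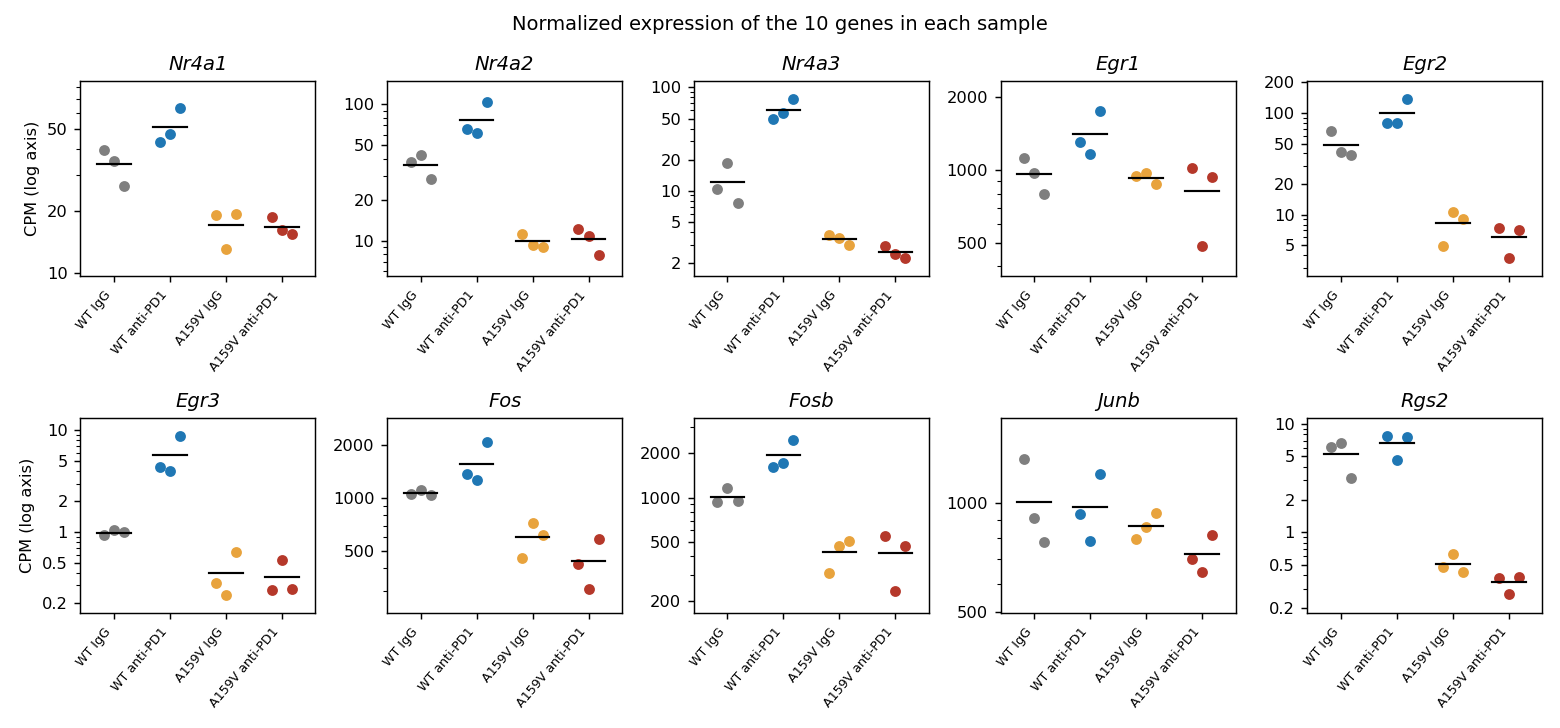
Levels of the 10 genes in the 12 samples, as CPM scaled by TMM on a log axis, with a point for each sample and a line at each group mean. Nr4a1, Nr4a2, Nr4a3, Egr2, Egr3, Fos, Fosb and Rgs2 lie lower in all 6 A159V samples than in all 6 WT samples, and Junb overlaps between the genotypes.

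Levels of different genes were compared as CPM per kilobase of exon. In WT IgG, Fos (455.8 CPM per kilobase), Junb (437), Egr1 (214.8) and Fosb (163) stood above Egr2 (14.3), Nr4a1 (9.63), Nr4a2 (8.9), Nr4a3 (2.05), Rgs2 (1.46) and Egr3 (0.225). Samples of neighbours in this order overlapped for Fos and Junb, for Egr1 and Fosb, for Egr2, Nr4a1 and Nr4a2, and for Nr4a3 and Rgs2. In WT anti-PD1, Fos led at 669.7 CPM per kilobase and Nr4a3 reached 10.2. In A159V IgG, Junb led at 375.8 CPM per kilobase, Fos followed at 255.4, and Nr4a3 was at 0.567. A159V anti-PD1 kept this order.

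The genotypes were first compared under IgG. Of the 7 members open to a test, 5 were called lower in A159V, against 12.4% of all genes called lower. Egr2 was 5.93-fold lower (log2 fold change −2.57, standard error 0.34, edgeR adjusted p = 0.000342) and Nr4a2 was 3.65-fold lower (−1.87, standard error 0.24, adjusted p = 0.000242). Nr4a1 fell by 0.98 on the log2 scale (standard error 0.2, adjusted p = 0.00431). Of the AP-1 subunits, Fosb fell 2.37-fold (−1.24, adjusted p = 0.00788) and Fos fell 1.79-fold (−0.84, adjusted p = 0.0249). The call on Fos was lost without A159V IgG replicate 1 (adjusted p = 0.101). Egr1 was not called (−0.05, 95% interval −0.58 to 0.48, adjusted p = 0.9), nor was Junb (−0.22, 95% interval −0.66 to 0.23, adjusted p = 0.451). The median over the 7 was −0.98, and over all genes it was 0.02. Rgs2 (−3.35, standard error 0.36), Nr4a3 (−1.84, standard error 0.3) and Egr3 (−1.31, standard error 0.46) are given without a test. Counted by sample, the 5 called genes had no overlap between samples, as did 16% of all genes in that direction.

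Scaling moved the balance of calls over all genes, from 2231 higher and 1779 lower with TMM to 1680 and 2052 with RLE size factors and to 1337 and 2313 with upper-quartile factors. Nr4a1, Nr4a2, Egr2, Fos and Fosb were called lower with each scaling, and Egr1 and Junb were not called with any. Of all genes, 14.3% were called lower with RLE and 16.1% with upper-quartile factors.

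Under anti-PD1, 6 of the 7 members were called lower in A159V, against 10.2% of all genes. Egr2 was 16.3-fold lower (log2 fold change −4.03, standard error 0.37, edgeR adjusted p = 3.03e-05) and Nr4a2 was 7.51-fold lower (−2.91, standard error 0.24, adjusted p = 1.84e-05). Fosb fell 4.62-fold (−2.21, adjusted p = 0.00036), Fos 3.59-fold (−1.84, adjusted p = 0.000409) and Nr4a1 3.07-fold (−1.62, adjusted p = 0.000254). Egr1 fell 1.73-fold (−0.79, standard error 0.25, adjusted p = 0.0382), a call that was lost without WT anti-PD1 replicate 1 (adjusted p = 0.0677) or 3 (0.175) and without A159V anti-PD1 replicate 2 (0.106) or 3 (0.0668). Junb had a log2 fold change of −0.43 (95% interval −0.88 to 0.01, adjusted p = 0.153). The 6 called genes had lower values in each A159V anti-PD1 sample than in any WT anti-PD1 sample, as did 23.5% of all genes. The median over the 7 was −1.84, and over all genes it was 0.06. Nr4a3 was at 60.9 ± 14.5 CPM (SD, n = 3) in WT and at 2.54 ± 0.37 CPM in A159V, a 23.9-fold lower level. By the fit, Rgs2 was 18.9-fold lower, on 5 to 7 counts per A159V sample, and Egr3 was 15.7-fold lower, on 5 to 10 counts. These 3 values are descriptions. This comparison shares no sample with the one under IgG.

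**Figure D2:**
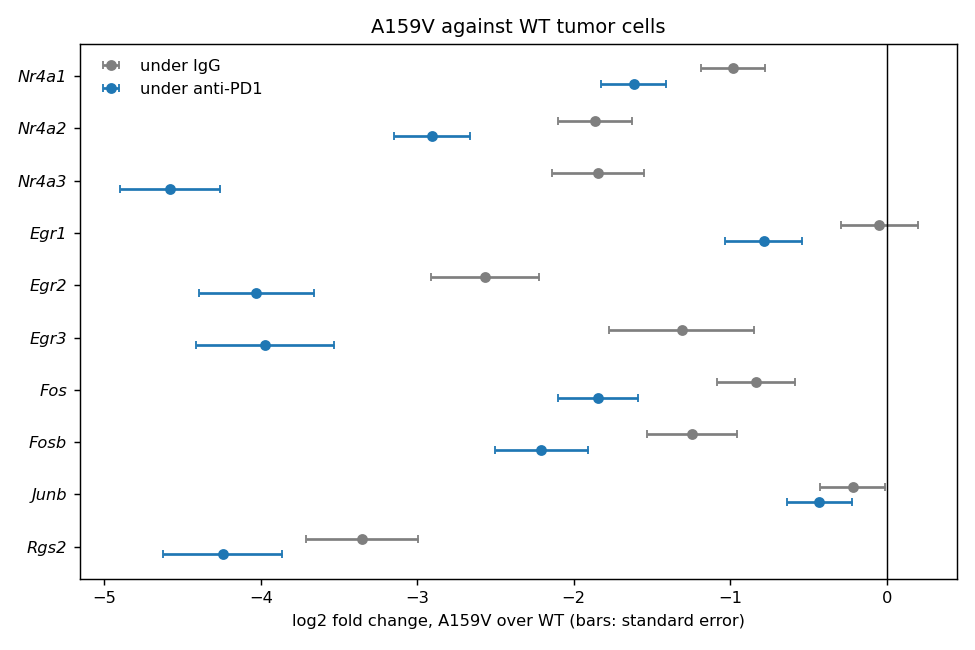
Log2 fold change of A159V against WT for each of the 10 genes, under IgG and under anti-PD1, with bars for the standard error of the edgeR fit. All 20 values are below 0, and those of Egr1 and Junb lie nearest to 0.

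Markers of other cells moved with this comparison. The summed level of 15 T and NK cell markers was 2.87 to 8.83 CPM with IgG and 25.1 to 46.4 CPM with anti-PD1 in WT tumors, and 1.11 to 2.02 CPM with IgG and 1.38 to 2.06 CPM with anti-PD1 in A159V tumors. Of the 15 markers, 5 did not pass the filter on low counts and 10 passed it through WT samples alone, so no count of called markers is given. Cd3e, a subunit of the T cell receptor complex, had 8 to 24 counts in WT anti-PD1, 0 to 2 in WT IgG, 0 to 1 in A159V IgG and 0 in the 3 A159V anti-PD1 samples. In A159V samples 5 to 9 of the 15 markers were at 0. In bulk RNA, fewer cells of a type and less RNA per cell cannot be told apart.

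In WT IgG, Nr4a3 and Rgs2 were highest in replicate 2, where the T and NK sum was lowest, and lowest in replicate 4, where that sum was highest and the myeloid sum given below was lowest. In WT anti-PD1, Nr4a3 was highest in replicate 3, which had the lowest T and NK sum, and Rgs2 was lowest in replicate 2, which had the highest. The other ends did not follow this order, since replicate 1 had the lowest Nr4a3 and the highest Rgs2 with a middle sum. Across groups, WT anti-PD1 had both the highest sums and the highest Nr4a3. These are orders of 3 samples, and the part of other cells in the levels of the members was not tested. A score of leukocyte genes was then added to the model. It averages T and NK, myeloid and B cell markers, many of them at few counts. Summed B cell markers were 3.76 to 6.17 CPM in WT and 7.01 to 8.09 CPM in A159V under IgG, opposite in direction to the T and NK sum. The score therefore mixes markers that differ in direction. With it in the model, 3 of the 7 members were called lower under IgG, where that fit called 6.35% of all genes in either direction. These were Nr4a2 (log2 fold change −2.31, adjusted p = 0.00148), Egr2 (−2.38, adjusted p = 0.0129) and Nr4a1 (−1.27, adjusted p = 0.0231). Fosb (−1.35, adjusted p = 0.0601) and Fos (−0.86, adjusted p = 0.149) were not called. Under anti-PD1, the score lay between 0.04 and 0.48 in WT and between −1.48 and −1.34 in A159V, so score and genotype cannot be told apart there. There the fit called 0 of the 7 members and 2 of the 14340 genes, with a log2 fold change of −4.46 for Nr4a2 (adjusted p = 0.0752). Summed myeloid markers ranged over 44.7 to 56.7 CPM with IgG and 59.6 to 82.9 CPM with anti-PD1 in WT tumors, and 57.2 to 75.5 CPM with IgG and 57.7 to 64.6 CPM with anti-PD1 in A159V tumors. Cd68 and Cd14 had the highest means of these markers in each group. Cd68 was called higher in A159V under IgG, and Ly6c2 was called lower under both treatments. Ptprc and Itgam passed the filter through WT samples and are only described. Under anti-PD1, Ptprc had means of 10.2 CPM in WT and 0.129 CPM in A159V, and Itgam 1.12 and 0.0359 CPM. Summed levels of 5 endothelial markers were 6.28 to 9.88 CPM with IgG and 13.4 to 14.8 CPM with anti-PD1 in WT tumors, and 5.79 to 9.51 CPM with IgG and 7.86 to 9.4 CPM with anti-PD1 in A159V tumors. Of the 3 endothelial markers tested, Cdh5 and Pecam1 were called lower in A159V under anti-PD1. Tie1 passed the filter through A159V samples, so its level is given as a description, with means of 0.132 CPM in WT and 0.797 CPM in A159V under IgG.

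**Figure D3:**
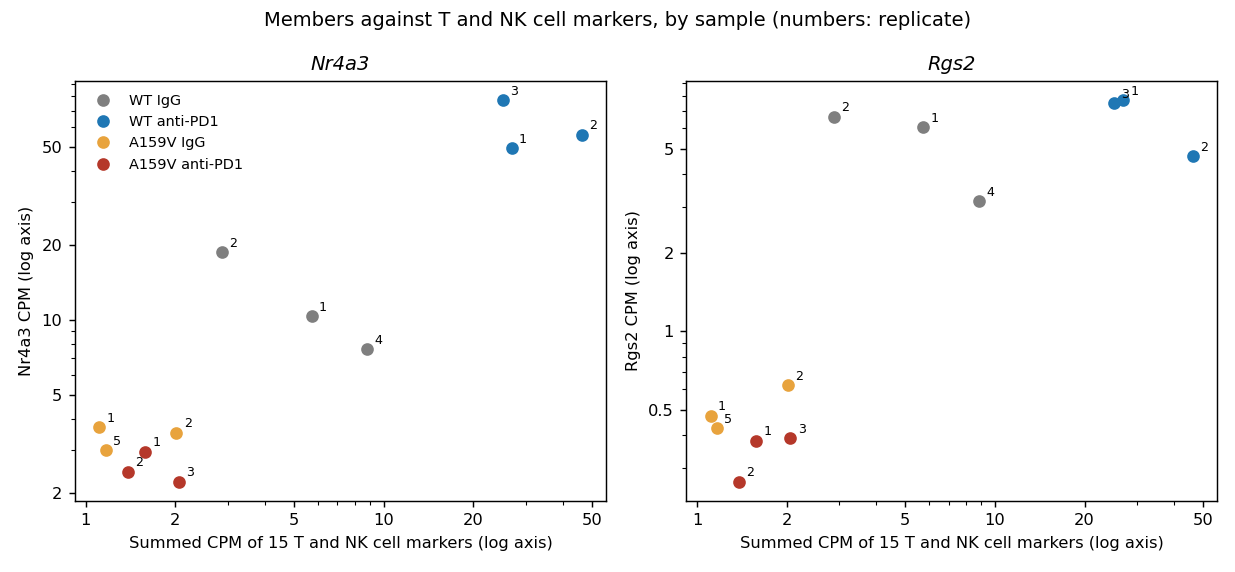
Nr4a3 and Rgs2 in each of the 12 samples (CPM, log axis) against the summed CPM of 15 T and NK cell markers (log axis), with a color for each group. The WT anti-PD1 samples have the highest marker sums (25.1 to 46.4 CPM) and the highest Nr4a3. Within WT IgG the sample with the lowest sum has the highest Nr4a3.

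Anti-PD1 was then compared with IgG within A159V tumors, a contrast that took no part in the choice of the genes. Of the 10 members, 0 were called by edgeR and 0 had an unadjusted p under 0.05, and 0 were called by DESeq2. Over all genes, edgeR called 0%, an unadjusted p under 0.05 was found for 2.52% higher and 1.12% lower, and DESeq2 called 2 genes. The log2 fold change of Nr4a3 was −0.42 (95% interval −1.11 to 0.27), of Nr4a2 0.06 (−0.45 to 0.57) and of Nr4a1 −0.03 (−0.47 to 0.41). For Egr3 it was −0.12 (95% interval −1.26 to 1.01), for Egr2 −0.44 (−1.19 to 0.32) and for Egr1 −0.19 (−0.72 to 0.34). For Fos it was −0.45 (95% interval −0.99 to 0.08), for Fosb −0.03 (−0.65 to 0.58), for Junb −0.26 (−0.7 to 0.19) and for Rgs2 −0.56 (−1.53 to 0.42). The intervals of the scarce Egr3 and Rgs2 were the widest. The samples of Nr4a3 and Rgs2 did not overlap, with the anti-PD1 samples lower, as was true of 6.51% of all genes. The median over the 10 was −0.22, and over all genes it was 0.01.

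In WT tumors, the change with anti-PD1 is the one that the choice of genes used. Egr3 was 5.81-fold higher (log2 fold change 2.54, standard error 0.39) and Nr4a3 was 4.98-fold higher (2.32, standard error 0.28). Nr4a2 was 2.14-fold higher, Egr2 2.03-fold, Fosb 1.9-fold, Nr4a1 1.52-fold, Fos 1.47-fold and Egr1 1.46-fold. In these 8 genes every anti-PD1 sample was above every IgG sample, a pattern that 18.7% of all genes showed. Rgs2 (1.26-fold, standard error 0.29 in log2) and Junb (0.969-fold, standard error 0.21 in log2) overlapped between the treatments. Replicate 3 of WT anti-PD1 was the highest of its group for 9 of the 10 members, with Rgs2 as the exception. The T and NK marker sums given above were also higher in all 3 anti-PD1 samples, and their part in these values was not tested.

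The change with anti-PD1 in A159V minus that in WT is likewise a description, since it contains the change in WT. The fitted difference in log2 fold change was −2.74 for Nr4a3 (standard error 0.42) and −2.66 for Egr3 (standard error 0.66). It was −1.46 for Egr2, −1.04 for Nr4a2, −1.01 for Fos, −0.96 for Fosb, −0.89 for Rgs2, −0.74 for Egr1, −0.63 for Nr4a1 and −0.21 for Junb.

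**Figure D4:**
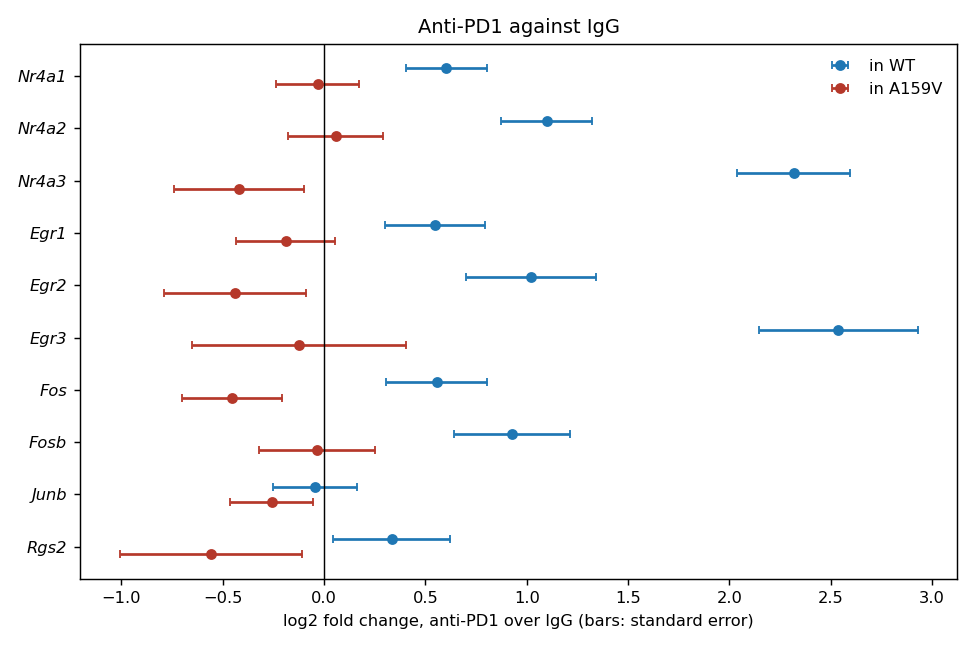
Log2 fold change of anti-PD1 against IgG for each of the 10 genes, in WT and in A159V tumors, with bars for the standard error of the edgeR fit. WT values reach 2.54 (Egr3) and 2.32 (Nr4a3), and A159V values lie between −0.56 and 0.06.

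Levels of the members were related to each other over the 12 samples, as a description of samples that fall into groups. Pearson's r of log2 CPM over the 45 pairs ran from 0.464 to 0.975, with a median of 0.886. After the group means were removed, r ran from −0.18 (Egr1 with Egr3) to 0.82 (Egr2 with Fos), with a median of 0.4, and 43 of the 45 values were above 0. Within groups, Nr4a2 had an r of 0.79 with Nr4a3 and 0.71 with Nr4a1, and Fos an r of 0.81 with Fosb. Among all 14340 genes, those with the highest r to Nr4a3 over the 12 samples were Faf2 (0.975), Nr4a2 (0.972), Kif1bp (0.97), Enpp2 (0.967), which encodes autotaxin, and Sik1 (0.965), a salt-inducible kinase. Those closest to Egr3 were the AP-1 gene Fosl2 (0.979), Doc2b (0.976), Abca8a (0.96), Clec11a (0.957) and the calcium pump gene Atp2b4 (0.956).

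Other genes of the same pathways were taken from 6 lists with 73 genes, of which 70 were tested. Under IgG, 25 were called lower in A159V and 8 higher, against 12.4% and 15.6% of all genes. Under anti-PD1, 27 were called lower and 1 higher, against 10.2% and 11.2%. These shares of all genes apply as well to the counts per list given below. Their median log2 fold change was −0.27 under IgG and −0.54 under anti-PD1. Of the 70, 4 genes (Ccn2, Hspb1, Nfatc2 and Rgs5) passed the filter through WT samples alone, and without them 23 of 66 were called lower under IgG and 24 under anti-PD1. In A159V, 0 were called with anti-PD1 by edgeR and by DESeq2.

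Among 22 tested immediate early genes outside the 10, 9 were called lower and 2 higher under IgG, and 9 lower and 0 higher under anti-PD1. Klf4, a zinc finger factor, was at 171 CPM with IgG and 342.1 CPM with anti-PD1 in WT tumors, and at 68.2 CPM with IgG and 45.6 CPM with anti-PD1 in A159V tumors (group means), with log2 fold changes between genotypes of −1.33 (edgeR adjusted p = 0.00118) and −2.91 (adjusted p = 1.35e-05). Btg2, an antiproliferative gene, fell by 1.4 on the log2 scale under IgG (adjusted p = 0.00282) and by 2.68 under anti-PD1 (adjusted p = 8.22e-05). Plk2, a kinase gene, fell by 1.3 (adjusted p = 0.000297) and by 1.57 (adjusted p = 0.000101). Zfp36l1, which encodes a factor that destabilizes mRNA, fell by 1.26 under IgG (adjusted p = 0.00277), and Trib1, a pseudokinase gene, fell by 2.37 under anti-PD1 (adjusted p = 9.83e-05).

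Of 8 other AP-1 genes, 2 were called lower and 1 higher under IgG, and 3 lower and 1 higher under anti-PD1. Jun fell by 1.08 on the log2 scale under IgG (standard error 0.26, edgeR adjusted p = 0.00919) and by 1.09 under anti-PD1 (adjusted p = 0.0102). Jund fell by 0.91 under IgG (adjusted p = 0.0209), and Fosl2 (−1.32, adjusted p = 0.000101) and Atf3 (−0.76, adjusted p = 0.0457) fell under anti-PD1. Batf, an AP-1 gene known from lymphocytes, was higher in A159V under IgG (1.14, adjusted p = 0.00886) and under anti-PD1 (1.15, adjusted p = 0.0109).

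Of 12 genes that dampen MAP kinase signaling, 4 were called lower and 2 higher under IgG, and 5 lower and 0 higher under anti-PD1. Dusp6, an ERK phosphatase, was at 103.6 CPM in WT and 48.6 CPM in A159V under IgG (−1.09, edgeR adjusted p = 0.00104). Dusp4, another ERK phosphatase, went the other way, from 63.5 CPM in WT to 148.3 CPM in A159V (1.22, adjusted p = 0.00109). Spry2, which restrains receptor tyrosine kinase signaling, fell by 0.84 (adjusted p = 0.00149) and Dusp10 by 0.84 (adjusted p = 0.00379). Under anti-PD1, Dusp1 fell by 2.36 (adjusted p = 0.000241), Dusp6 by 1.26 (adjusted p = 0.000443), Spry2 by 0.92 (adjusted p = 0.000944) and Dusp10 by 1.01 (adjusted p = 0.0016).

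Of 15 cAMP and calcium control genes, Rgs16, Pde4d and Rgs1 were called lower and Pde4b higher under IgG. Under anti-PD1, Rgs16, Pde4d, Rgs1 and Rgs3 were called lower and 0 higher. Rgs5 and Nfatc2 passed the filter through WT samples alone and are not counted here. Rgs16, which like Rgs2 acts on G protein alpha subunits, was at 21.4 CPM in WT and 0.912 CPM in A159V under IgG (−4.56, standard error 0.45, edgeR adjusted p = 6.63e-05). Under anti-PD1 it was at 7.97 CPM in WT and 0.818 CPM in A159V (−3.28, adjusted p = 0.000403). As a description, Rgs5 had 14 to 21 counts in WT IgG and 0 to 2 in A159V IgG. The cAMP phosphodiesterase genes differed in direction under IgG, with Pde4d lower (−0.77, adjusted p = 0.0149) and Pde4b higher (1.05, adjusted p = 0.0216). Under anti-PD1, Pde4d (−1.18, adjusted p = 0.0017), Rgs1 (−1.91, adjusted p = 0.00358) and Rgs3 (−1.44, adjusted p = 0.00483) fell. Of 6 SRF and ternary complex factor genes, 1 was called lower (Elk4, −0.54, adjusted p = 0.0262) and 2 higher under IgG, of which Elk1 had a value of 0.75 (adjusted p = 0.0118) and Mrtfa, a coactivator of SRF, one of 0.64 (adjusted p = 0.00532). Under anti-PD1, Elk4 (−0.58, adjusted p = 0.0224) and Elk3 (−0.53, adjusted p = 0.0321) were called lower.

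Heat shock genes are also induced by warm dissociation. Of 7 such genes, Hspa1a, Hspa1b, Dnajb1 and Hsph1 were called lower in A159V under IgG and Dnajb1 under anti-PD1, with 0 called higher in either. Over all genes, 12.4% and 10.2% were called lower. Hspb1 passed the filter through WT samples alone and is only described. Hspa1b, an inducible HSP70 gene, was at 809 CPM with IgG and 218.5 CPM with anti-PD1 in WT tumors, and at 139.2 CPM with IgG and 124.4 CPM with anti-PD1 in A159V tumors (group means), with a log2 fold change of −2.54 between the genotypes under IgG (edgeR adjusted p = 0.00788). Hspa1a fell by 2.23 there (adjusted p = 0.0161), Dnajb1 by 1.31 (adjusted p = 0.00104) and Hsph1 by 0.77 (adjusted p = 0.00218). Under anti-PD1, Dnajb1 fell by 0.71 (adjusted p = 0.03), and Hspb1 had 6 to 22 counts in WT and 0 to 3 in A159V. The summed level of the 7 genes was 6131 to 8128 CPM with IgG and 4235 to 4966 CPM with anti-PD1 in WT tumors, and 5134 to 5810 CPM with IgG and 5209 to 6216 CPM with anti-PD1 in A159V tumors. Hspa8 had the highest group means of the 7 genes (2811 to 3754 CPM), followed by Hsp90aa1 (937.5 to 1305 CPM). The sum therefore mainly reflects these genes and says little on Hspa1a, Hspa1b and Dnajb1. In WT tumors it was lower in all 3 anti-PD1 samples, in which 8 of the 10 members were higher. Taken singly, 6 of the 7 genes were lower in each WT anti-PD1 sample than in any WT IgG sample, as were 15.8% of all genes. The part of dissociation in the levels of the members was not tested.

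The change with anti-PD1 in WT tumors is the contrast that the choice of the set used, and the lists were written with earlier results known. Counts of list genes in it are therefore descriptions and lend no support to the set. Of the 70 genes, 3 were called there, all higher, which is 4.29% against 0.628% of all genes. They were Fosl2 (log2 fold change 0.95, standard error 0.14), Dusp4 (1.26, standard error 0.2) and Trib1 (1.22, standard error 0.25). Fosl2 was also the gene closest to Egr3 over the 12 samples. Single samples moved this count together with that over all genes. Without WT IgG replicate 1 or any 1 WT anti-PD1 replicate, 0 were called and 1 to 10 of all genes. Without WT IgG replicate 2, the counts were 1 and 22, and without WT IgG replicate 4 they were 19 and 3458, which is 23.6% of all genes.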

How the data were processed

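RNA of purified MC38 tumor cells was sequenced in 12 samples, grouped by their labels. The authors aligned paired reads to mm10 with STAR, counted them per gene with summarizeOverlaps and deposited raw counts without normalization. Counting mode, strand and annotation are not given in the sources used here. Symbols and positions came from GENCODE M21, and promoters from RefSeq tables (GRCm38.p6).

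The members and gene lists were chosen with earlier results of these data known, and the lists were written by hand. Genes named are the members, up to 4 called genes per list and pairwise contrast by smallest p, the 5 genes most like Nr4a3 and Egr3 (Pearson's r of log2 CPM, prior count 2), and markers given beside a result.

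Counts were kept by filterByExpr (14340 genes with at least 0.532 CPM in 3 samples), scaled by TMM and fitted with the quasi-likelihood model of edgeR 4.0.16 in R 4.3.3, with 8 residual degrees of freedom. The fit was tested on simulated data. No 2 samples of a group agreed within sampling noise (chi-square per degree of freedom at least 6.22). The leukocyte score is the mean log2 CPM of the T and NK, myeloid and B cell markers. Alternatives were RLE and upper-quartile scaling, no filter, at least 10 counts in every sample, DESeq2 1.42.0, voom in limma 3.58.1, only the contrast's samples, the replicate block, the leukocyte score, and each sample left out. Figures were drawn with matplotlib 3.10.9. Single-cell data of the study were not analysed here.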

Additional observations from a re-analysis of the deposited data

Results flagged for a closer look

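The change of Nr4a3 with anti-PD1 pointed in opposite directions in the 2 genotypes. All 3 WT anti-PD1 samples were above all 3 WT IgG samples, and all 3 A159V anti-PD1 samples were below all 3 A159V IgG samples. The change in A159V minus the change in WT was −2.74 on the log2 scale. This difference was not tested, because the values of Nr4a3 in WT helped to choose the genes, and the change within A159V was itself not called (log2 fold change −0.42, 95% interval −1.11 to 0.27, edgeR).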

How the results depend on the processing

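Of 133 counts of called or non-overlapping genes recomputed under another setting, 115 stayed within 1.5 times the reported count. Many of the 115 are counts of 0 that stayed at 0, such as those in A159V, where edgeR called 0 of all genes. For these a ratio has no meaning. Of the 8 members recomputed for the genotype comparisons, 0 changed direction where a call had been made. Counts of members here include Rgs2, whose lower level in A159V is a description, since it passed the filter through WT samples. With single samples left out, the members called were 5 to 6 under IgG, 6 to 7 under anti-PD1 and 0 in A159V, and those without overlap in WT were 8 to 9. The interaction (the change with anti-PD1 in A159V minus that in WT) was fitted as planned. It is described without a test, so no count of members called for it is given. Calls of list genes in WT are likewise descriptions. The pathway lists then gave 23 to 37 calls under IgG, 20 to 27 under anti-PD1 and 0 to 19 in WT. The share of all genes called then ran from 17.5% to 32% under IgG, 10.4% to 14.8% under anti-PD1 and 0.00684% to 23.6% in WT. With the leukocyte score in the model (6.35% of all genes called under IgG and 0.0139% under anti-PD1), 0 members and 0 list genes were called under anti-PD1, and 11 list genes under IgG and 0 in WT. With only the samples of a contrast, the lists gave 21 calls under IgG, 43 under anti-PD1 and 0 in WT, and Junb was called under anti-PD1 (adjusted p = 0.0182). That setting called 10.3% of all genes under IgG, 38.5% under anti-PD1 and 0% in WT. In WT the lists gave 9 calls without a filter (3.25% of all genes called), 10 with DESeq2 (10%) and 5 with voom (1.31%). Deviations from the group means were correlated between samples of different groups. The 13 same-numbered pairs ran from −0.18 to 0.2, of which 3 were above 0.1. The 41 pairs with other numbers ran from −0.22 to 0.23, of which 9 were above 0.1. These values show no pairing by number and cannot exclude one. In the replicate block, WT IgG replicate 4 and A159V IgG replicate 5 each have a term of their own, since no other sample has their number. The replicate block gave a call of Junb under anti-PD1 (adjusted p = 0.0388) where it called 35% of all genes. It gave 29 list calls in WT where it called 32.4%. Without the block these shares were 21.4% and 0.628%. For the interaction it called 19.2% of all genes, against 0.00697% without the block. Over all genes, DESeq2 called 1441 in WT, 294 for the interaction and 2 in A159V, where edgeR called 90, 1 and 0. Upper-quartile factors moved the all-gene median under IgG to −0.13, and Egr3 and Rgs2 gave no value with at least 10 counts in every sample. The cause of these changes was not tested. Depth limits Egr3 and Rgs2 in A159V, at 5 to 13 counts per sample.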
